A study of Mus musculus with 6 samples.

Results

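Cholesterol is made from acetyl-CoA in the cytosol and endoplasmic reticulum, first through the mevalonate steps to squalene and then through ring closure and trimming of the sterol. Enzyme genes of this route and a sterol sensor are described here in mouse satellite cells, which are the resident stem cells of muscle. The genes were *Hmgcs1*, *Idi1*, *Fdft1*, *Sqle*, *Lss*, *Dhcr7* and *Insig1*, which is 7 of the 17152 genes tested, and all 7 passed the filter on low reads. They were taken by gene symbol, and *Dhcr7* was included because its measured level was lower in Pax7KR. The level of *Dhcr7* in that contrast is therefore given as a description with no test. By the fitted means all 7 were lower in Pax7KR, at 0.685 (the selected *Dhcr7*) to 0.907 times the Pax7WT level. Only *Dhcr7* was lower in every Pax7KR library than in every Pax7WT library. This held for 5.19% of all genes tested, and *Dhcr7* was selected on that difference.

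As background, transcription of nearly all enzymes of the route is driven by SREBP2 (*Srebf2*), a factor held in the endoplasmic reticulum membrane together with its escort SCAP. When membrane sterol is high, INSIG proteins retain the complex. When sterol is low, SCAP carries SREBP2 to the Golgi, where the site-1 and site-2 proteases (*Mbtps1*, *Mbtps2*) release the part that enters the nucleus and binds sterol regulatory elements, often beside NF-Y and SP1 sites. *Insig1* is itself a target of SREBP2, so its transcript is commonly read with those of the enzymes.

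The study asked how gene expression differs when a lysine of PAX7 that can be acetylated is replaced by arginine. Both groups were C57BL/6J mice, 3 libraries each, and mice of 6 to 8 weeks were the ones used in the study. Pax7KR denotes mice homozygous for the arginine allele, which was made with CRISPR-Cas9 in zygotes, and Pax7WT denotes wild-type littermates, and no other allele or agent is named for either group. The allele is in the germline and so present in every cell of the animal, not only in satellite cells. Cells were sorted from uninjured hindlimb muscle by flow cytometry as positive for α7-INTEGRIN and CD34 and negative for CD31, CD45, CD11b and SCA-1, straight after enzymatic dissociation, and 15 ng of RNA went into each strand-specific library. The submitters call each library a biological sample without naming the animals, so a p-value here measures the spread between these libraries. In bulk RNA, fewer cells of a type cannot be told apart from less RNA per cell.

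Each library held between 17822367 and 27908054 estimated reads. The satellite cell markers were present throughout, with *Pax7* at 1666, 1506 and 1480 CPM (reads scaled to the size of the library) in Pax7WT replicates 1 to 3 and 1410, 1460 and 1637 CPM in Pax7KR. The deposited tables hold reads per transcript and no base calls, so *Pax7* reads do not check the allele. The 9 immune markers summed to 9.63 to 14.2 CPM, with *Adgre1* at 0 in Pax7WT replicate 1 and Pax7KR replicate 3 and *C1qb* at 0 in Pax7WT replicates 2 and 3.

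The stretches of DNA around the annotated starts of the genes are shown because transcription of this route is set there. RefSeq windows, from 250 bases before to 50 bases after each start on GRCm38.p6, were found for 5 of the 7 genes (all but *Sqle* and *Fdft1*) and are given on the strand of the gene, 5′ to 3′. Capitals mark 3 letter patterns searched on both strands, with overlapping matches allowed: a form of the sterol regulatory element (TCACNCCAC), the NF-Y box (CCAAT, read as ATTGG on the other strand) and the GC box bound by SP1 (GGGCGG, or CCGCCC). *Hmgcs1* lies at chr13:119690101-119690400, *Idi1* at chr13:8885356-8885655, *Lss* at chr10:76531355-76531654, *Insig1* at chr5:28071162-28071461 and one of the 3 *Dhcr7* windows at chr7:143829964-143830263, all on the plus strand.
Hmgcs1: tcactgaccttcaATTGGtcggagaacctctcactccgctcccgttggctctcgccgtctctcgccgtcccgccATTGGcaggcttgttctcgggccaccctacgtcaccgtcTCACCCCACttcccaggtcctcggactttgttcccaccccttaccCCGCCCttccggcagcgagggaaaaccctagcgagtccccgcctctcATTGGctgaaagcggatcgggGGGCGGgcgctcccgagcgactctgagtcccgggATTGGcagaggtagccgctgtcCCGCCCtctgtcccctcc
Idi1: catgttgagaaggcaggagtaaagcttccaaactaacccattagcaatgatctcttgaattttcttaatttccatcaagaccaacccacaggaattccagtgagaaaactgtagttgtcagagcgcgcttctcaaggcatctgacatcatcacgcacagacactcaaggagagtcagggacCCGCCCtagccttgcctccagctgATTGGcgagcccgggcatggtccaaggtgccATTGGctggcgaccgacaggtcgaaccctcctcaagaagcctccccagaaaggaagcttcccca
Lss: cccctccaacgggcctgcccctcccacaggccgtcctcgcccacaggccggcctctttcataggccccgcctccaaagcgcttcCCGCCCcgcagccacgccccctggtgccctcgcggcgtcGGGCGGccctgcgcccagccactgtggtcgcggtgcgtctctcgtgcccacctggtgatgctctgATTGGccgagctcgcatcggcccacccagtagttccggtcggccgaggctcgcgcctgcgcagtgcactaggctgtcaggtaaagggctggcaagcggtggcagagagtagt
Insig1: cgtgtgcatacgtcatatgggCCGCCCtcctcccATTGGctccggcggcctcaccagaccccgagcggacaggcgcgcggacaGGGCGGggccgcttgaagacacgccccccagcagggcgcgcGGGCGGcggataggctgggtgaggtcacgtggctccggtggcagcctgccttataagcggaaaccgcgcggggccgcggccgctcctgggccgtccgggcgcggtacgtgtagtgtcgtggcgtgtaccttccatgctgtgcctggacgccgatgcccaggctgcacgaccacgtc
Dhcr7: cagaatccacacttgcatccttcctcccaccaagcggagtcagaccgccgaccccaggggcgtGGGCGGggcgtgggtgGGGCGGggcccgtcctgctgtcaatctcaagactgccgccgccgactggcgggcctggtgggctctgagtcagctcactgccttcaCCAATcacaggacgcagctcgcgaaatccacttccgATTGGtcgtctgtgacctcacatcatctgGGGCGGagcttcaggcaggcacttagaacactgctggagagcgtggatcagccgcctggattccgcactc

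The sterol regulatory element pattern was found in the *Hmgcs1* window alone, 137 bases before the start, and this pattern occurs in 1.24% of all 32851 RefSeq promoter windows. NF-Y boxes were in all 5 windows shown, 4 in *Hmgcs1*, 2 in *Idi1*, 1 in *Lss*, 1 in *Insig1* and 2 in *Dhcr7*, against 37.4% of all windows with at least 1. GC boxes numbered 3, 1, 2, 3 and 3 in the same order, against 35.7% of all windows. The *Dhcr7* window shown was picked among 3 for lying nearest to the start of Dhcr7-202, the transcript that held most of its reads, which begins 588 bases away from the annotated start. The other 2 *Dhcr7* windows, with starts at 143823167 and 143823399, held 1 GC box and none of the 3 patterns, in that order. TAAT, the core bound by homeodomains such as that of PAX7, was absent from the *Dhcr7*, *Hmgcs1*, *Lss* and *Insig1* windows shown, occurred at 2 places in *Idi1*, at 1 and 2 places in the *Dhcr7* windows with starts at 143823167 and 143823399, and is in 58.0% of all windows. These matches describe letters in short windows and say nothing of binding.

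The first of the members along the route is *Hmgcs1* (ENSMUSG00000093930, chr13:119690379-119708260, plus strand), which makes HMG-CoA from acetoacetyl-CoA. It was at 113, 127 and 80.8 CPM in Pax7WT replicates 1 to 3 and at 65.4, 55.9 and 118 CPM in Pax7KR. Pax7KR replicates 1 and 2 lay below all Pax7WT libraries, and Pax7KR replicate 3 lay between Pax7WT replicates 1 and 2, so the groups overlapped. The log2 fold change was -0.42 (SE 0.37, n = 3 per group, 95% interval -1.44 to 0.59, edgeR quasi-likelihood test, adjusted p = 0.998). Its value ran from -0.22 without Pax7KR replicate 2 to -0.81 without Pax7KR replicate 3.

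*Idi1* (ENSMUSG00000058258, chr13:8885501-8892451, plus strand) interconverts the 5-carbon isoprene units. It was at 71.7, 93.0 and 65.7 CPM in Pax7WT and 64.7, 48.7 and 80.5 CPM in Pax7KR. Here too Pax7KR replicate 3 was within the Pax7WT range, and Pax7KR replicate 1 was just under its lowest library. The log2 fold change was -0.25 (SE 0.24, 95% interval -0.86 to 0.36, edgeR adjusted p = 0.998), with -0.08 without Pax7KR replicate 2, -0.09 without Pax7WT replicate 2 and -0.44 without Pax7KR replicate 3. Of the 31-base stretches of its transcripts, 18.8% also occur in those of other genes, most often *Gm13502*, so its reads may be divided between them.

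*Fdft1* (ENSMUSG00000021273, chr14:63145150-63179578, minus strand) encodes squalene synthase, the first enzyme committed to sterols. Pax7WT libraries held 45.3, 66.7 and 49.2 CPM and Pax7KR libraries 32.8, 30.2 and 48.9 CPM. Pax7KR replicates 1 and 2 were below all Pax7WT libraries and replicate 3 lay between the lowest and the middle Pax7WT library. With a log2 fold change of -0.53 (SE 0.25, 95% interval -1.17 to 0.12, edgeR adjusted p = 0.992), it had the largest difference of the members other than *Dhcr7*, and the value was -0.34 without Pax7WT replicate 2. The gene shares 14.3% of its 31-base stretches with others, most often with *Gm6781*.

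*Sqle* (ENSMUSG00000022351, chr15:59315077-59331192, plus strand) oxidises squalene, a rate-limiting and oxygen-dependent step. Its levels were 56.4, 81.4 and 54.4 CPM in Pax7WT and 47.6, 37.4 and 61.4 CPM in Pax7KR. The pattern over libraries was again low in Pax7KR replicates 1 and 2 and within the Pax7WT range in replicate 3. The log2 fold change was -0.39 (SE 0.26, 95% interval -1.07 to 0.29, edgeR adjusted p = 0.992). It was -0.19 without Pax7WT replicate 2, -0.23 without Pax7KR replicate 2 and -0.59 without Pax7KR replicate 3.

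*Lss* (ENSMUSG00000033105, chr10:76531588-76557138, plus strand) closes the rings to give lanosterol. It varied least of the members, at 60.7, 76.8 and 62.8 CPM in Pax7WT and 60.0, 57.8 and 63.7 CPM in Pax7KR. The log2 fold change was -0.14 (SE 0.09, 95% interval -0.33 to 0.05, edgeR adjusted p = 0.992), and without Pax7WT replicate 2, the one library that stood above the others, it was -0.03. Most *Lss* reads were assigned to transcripts annotated with a retained intron, 59.8 to 78.2% per library, so the value of the gene mixes coding and non-coding transcripts.

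*Dhcr7* (ENSMUSG00000058454, chr7:143823145-143848410, plus strand) encodes 7-dehydrocholesterol reductase, which reduces 7-dehydrocholesterol to cholesterol in the last step of one branch of the route. It was at 20.9, 24.8 and 17.5 CPM in Pax7WT and 14.0, 14.2 and 14.9 CPM in Pax7KR, from 316 to 569 reads per library. The groups did not overlap, and the 3 Pax7KR libraries lay closer together than the Pax7WT libraries, with means of 14.4 ± 0.474 and 21.1 ± 3.70 CPM (SD, n = 3). The fitted ratio of Pax7KR to Pax7WT was 0.685, a log2 difference of -0.55. This is the value it was selected on, so it carries no test here. *Dhcr7* was the one member for which Pax7KR replicate 3 was low together with replicates 1 and 2.

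*Insig1* (ENSMUSG00000045294, chr5:28071363-28078662, plus strand) encodes the membrane protein that retains the SCAP and SREBP2 complex. It was at 175, 169 and 146 CPM in Pax7WT and 110.2, 109 and 177 CPM in Pax7KR. Pax7KR replicates 1 and 2 lay well below the Pax7WT libraries, while Pax7KR replicate 3 was above all of them. The log2 fold change was -0.31 (SE 0.23, 95% interval -0.92 to 0.30, edgeR adjusted p = 0.998). Without Pax7KR replicate 3 it was -0.58 with an edgeR adjusted p of 0.0398, and it was -0.20 without Pax7KR replicate 1 and -0.19 without Pax7KR replicate 2. The first of these fits left out the Pax7KR library that lay above all Pax7WT libraries. In that fit 32 of 16887 genes passed an adjusted p of 0.1.

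**Figure D1:**
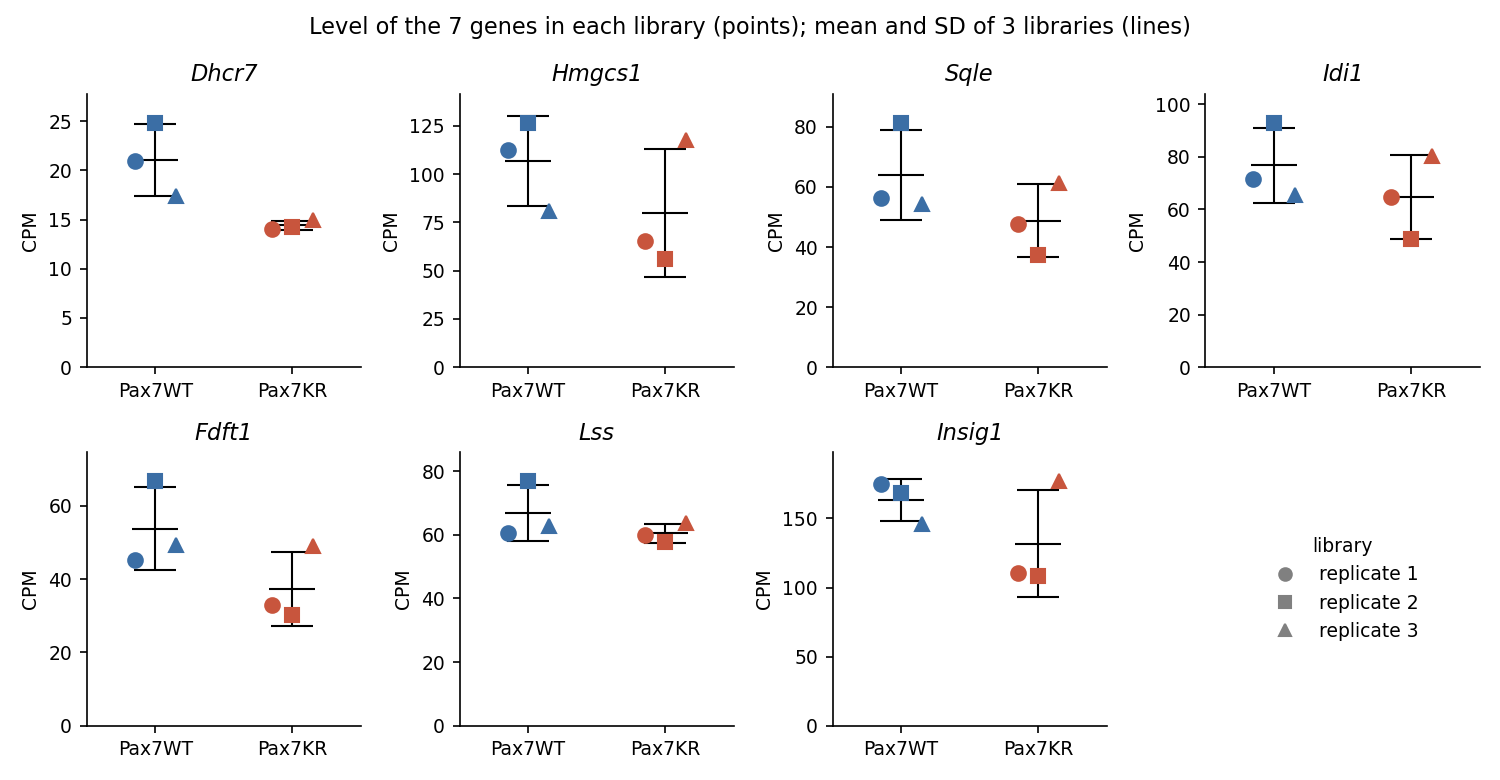
Level of each of the 7 genes in CPM (vertical axis, from 0) in the 3 Pax7WT (blue) and 3 Pax7KR (red) libraries, with marker shape for the replicate number and black lines for mean and SD. The Pax7KR circle and square lie below every blue point in each panel, whereas the Pax7KR triangle does so for *Dhcr7* alone.

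The 6 members other than *Dhcr7* all had a lower fitted level in Pax7KR. With *Dhcr7*, whose direction was set by its selection, the median log2 fold change of the 7 was -0.39. Of all genes tested, 50.9% were lower, with a median of -0.00. The members were chosen with earlier results of these data known, so nothing is read from this contrast. *Dhcr7* aside, none of the 6 members passed an adjusted p of 0.1 in edgeR, where 0% of the 17152 genes tested did. By an unadjusted p under 0.05, 803 genes (4.68%) passed in edgeR, with none of these 6 among them. DESeq2 called 30 genes at an adjusted p of 0.1, also with none of the 6 among them. *Dhcr7* was the one member of 7 whose groups did not overlap, in a comparison where this held for 10.3% of all genes in either direction and 5.19% with Pax7KR lower, and nothing is read from it because the gene was selected on that difference.

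The 21 enzymes of the whole route from acetyl-CoA to cholesterol gave a wider view, since 15 of them were not members. This list was also chosen with earlier results of these data known, so its counts are a description. Of the 21, with the selected *Dhcr7* among them, 18 had a lower and 3 a higher fitted level in Pax7KR. Their median was -0.25 on the log2 scale, and 0 passed the adjusted threshold. Among the 15 that were not members, 12 were lower and the median was -0.22. Pax7WT replicate 2 was the highest library for 19 of the 21 enzymes, so the enzymes are not separate observations. *Nsdhl*, a sterol dehydrogenase of the demethylation steps, was the only enzyme besides the selected *Dhcr7* with separate groups. Of the 15 enzymes that were not members, 1 was thus separate, where 5.19% of all genes were separate with Pax7KR lower and 10.3% in either direction. *Dhcr7* is left out of this count because it was selected on that difference. *Nsdhl* was at 21.4, 26.1 and 22.5 CPM in Pax7WT and 19.7, 21.2 and 15.1 CPM in Pax7KR. Its log2 fold change was -0.32 (SE 0.13, edgeR unadjusted p = 0.0313, adjusted p = 0.992), and without Pax7KR replicate 3, its lowest library, it was -0.19 (unadjusted p = 0.153).

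Other enzymes with differences as large as those of the members included *Msmo1* (-0.51, SE 0.34), which removes methyl groups from the sterol ring, and *Cyp51* (-0.45, SE 0.27), the lanosterol demethylase. *Msmo1* was at -0.28 without Pax7KR replicate 2 and -0.89 without Pax7KR replicate 3, and *Cyp51* was at -0.25 without Pax7WT replicate 2 and -0.29 without Pax7KR replicate 2. *Hsd17b7*, a reductase of the same steps, was at 56.3, 62.8 and 58.0 CPM in Pax7WT and 37.4, 32.4 and 60.1 CPM in Pax7KR, with a log2 fold change of -0.45 (SE 0.25). Pax7KR replicate 3 again stood apart from replicates 1 and 2 and fell within the Pax7WT range. Without it the value for *Hsd17b7* was -0.76 (edgeR adjusted p = 0.0162), and without Pax7KR replicate 2 it was -0.28. In the fit without Pax7KR replicate 3, 32 of 16887 genes passed an adjusted p of 0.1.

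*Tm7sf2*, a sterol reductase, and *Ebp*, a sterol isomerase, were among the 3 enzymes with a higher fitted level, by 0.09 and 0.09 on the log2 scale (SE 0.17 and 0.11), but *Tm7sf2* was lower, at -0.12, without Pax7KR replicate 3. The 9 enzymes up to squalene synthase were all lower (median -0.25), and of the 12 after it 9 were lower (median -0.27).

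**Figure D2:**
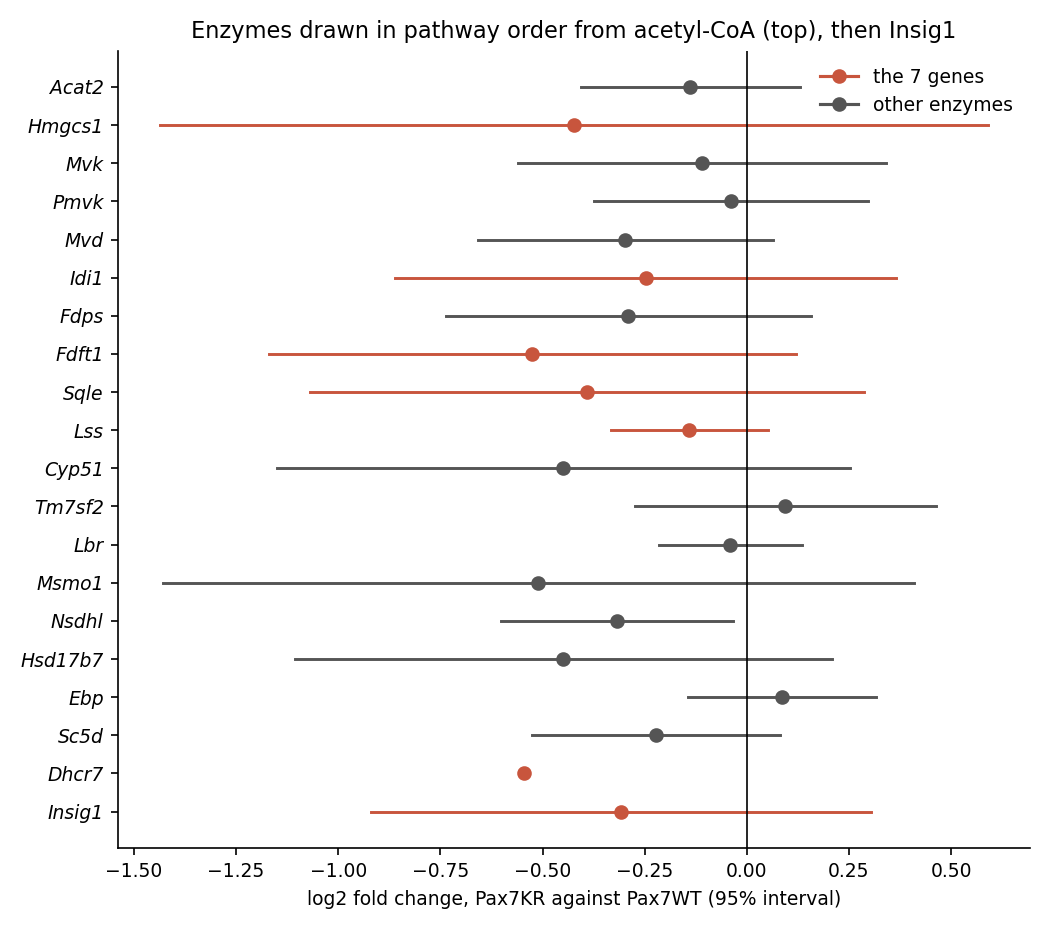
Log2 fold change of Pax7KR against Pax7WT (horizontal axis) for enzymes of the route from acetyl-CoA downwards and *Insig1*, with 95% intervals from the edgeR fit, and the 7 members in red. *Dhcr7* is drawn without an interval because it was selected on this value, and of the enzymes drawn only *Tm7sf2* and *Ebp* lie right of 0, while only the interval of *Nsdhl* lies wholly below it.

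The libraries differed within each genotype in a way that ran across the route. Of the 21 enzymes, 15 were below all Pax7WT libraries in Pax7KR replicate 1, 15 in replicate 2 and 2 in replicate 3. The median log2 ratio of the enzymes to their Pax7WT mean was -0.25, -0.46 and -0.07 in the 3 Pax7KR libraries. In Pax7WT replicate 2 that median was 0.24, against -0.12 in replicate 1 and -0.13 in replicate 3, and this library was the highest of the 6 for 19 of the 21 enzymes and 6 of the 7 members. Without Pax7WT replicate 2, the median log2 fold change of the enzymes was -0.10 and 15 of 21 were lower, whereas without Pax7KR replicate 3 it was -0.36 and 19 were lower.

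Pax7WT replicate 2 also had the lowest sum over 12 immediate early genes, which dissociation is known to induce, at 17410 CPM, where Pax7WT replicates 1 and 3 had 32800 and 30500 CPM and Pax7KR libraries 24590 to 28050 CPM. It was the shallowest library of the 6. Of 9 endothelial markers 8 had a higher fitted level in Pax7KR, with none at 0. The sum of the 9 was 266 to 337 CPM in Pax7WT and 298 to 376 CPM in Pax7KR, although CD31+ cells were gated out. Most of each sum was *Tek*, at 231, 184 and 207 CPM in Pax7WT and 221, 221 and 216 CPM in Pax7KR. *Pecam1*, which encodes CD31, was at 20.7 to 42.2 CPM in Pax7WT and 26.9 to 50.4 CPM in Pax7KR. Which cells the *Tek* reads came from was not tested. Pax7KR replicate 2, lowest of all libraries for 6 of the 7 members, had the highest endothelial sum. All 7 smooth muscle and pericyte markers had a lower fitted level in Pax7KR, none at 0, with sums of 288 to 376 CPM in Pax7WT and 267 to 338 CPM in Pax7KR. The part of these values in the levels of the cholesterol genes was not tested.

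**Figure D3:**
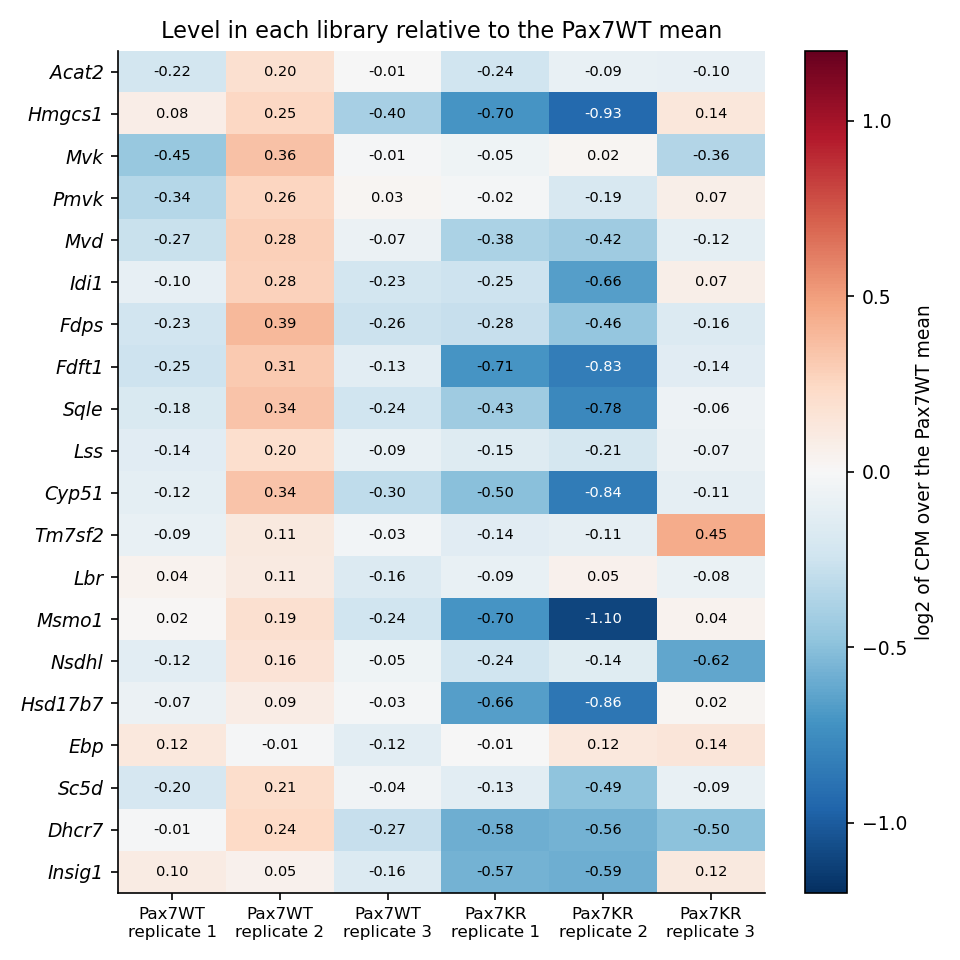
Colour and number give the log2 of the CPM over the Pax7WT mean for enzymes of the route in pathway order and *Insig1* (rows) in each of the 6 libraries (columns). Pax7KR replicates 1 and 2 are blue down most of the column, Pax7WT replicate 2 is red for nearly all enzymes, and Pax7KR replicate 3 is near 0 except for *Nsdhl*, *Dhcr7*, *Mvk* and *Tm7sf2*.

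The members other than *Dhcr7* moved together from library to library. Over the 6 libraries, Pearson's r of log2 CPM was 0.56 to 0.98 in the 15 pairs without *Dhcr7*, and 14 of them had an adjusted p under 0.1 for r and 13 for Spearman's rho (exact permutation over 720 orders, two-sided, adjusted over 21 pairs). These values take in the difference between the genotypes, and the members were chosen with earlier results of these data known. The share of all gene pairs with values this high was not computed. *Sqle* and *Idi1* gave the highest value, with r = 0.979 (exact permutation p = 0.0056, adjusted 0.0196) and rho = 1.0 (p = 0.0028, adjusted 0.0196), and without the 2 libraries farthest from the median r was 0.883. *Insig1* and *Hmgcs1* gave r = 0.965 (exact permutation p = 0.0111, adjusted 0.0333) and rho = 0.829 (p = 0.0583, adjusted 0.0942), with 0.898 without 2 libraries. *Fdft1* and *Insig1* gave 0.846, and this relation rested on the 2 farthest libraries, since it was -0.002 without them. Within genotypes, after each group's mean was removed, r was 0.38 to 0.99 in the 15 pairs, so the common movement was also present inside the groups.

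Correlations of *Dhcr7* lay in the lower part of that range. Its r with the 6 other members was 0.66 to 0.82 over all libraries and 0.41 to 0.77 within genotypes, with *Fdft1* the nearest member at 0.815. Among 13219 genes with a mean of at least 1 CPM, the 5 most like *Dhcr7* over the 6 libraries were *A330009N23Rik* (r = 0.997), *Emc2* (0.992), *Mrpl48* (0.988), *Ccdc134* (0.987) and *Mir17hg* (0.984), none of them a gene of cholesterol metabolism. As an example, *Emc2*, a subunit of the membrane protein insertion complex of the endoplasmic reticulum, was at 28.7, 31.2 and 26.4 CPM in Pax7WT and 24.1, 24.8 and 24.3 CPM in Pax7KR. These correlations share the genotype difference *Dhcr7* was selected on and are a description. Among the nearest genes of the cholesterol lists were *Stard4*, a sterol carrier, ranked 169 (r = 0.884), *Srebf2*, ranked 254 (0.854), and *Cyp51*, ranked 337.

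The reads of *Dhcr7* were then followed by annotated transcript. Of 13 transcripts, Dhcr7-202 held 85.3 to 99.3% of the reads of a library, at 18.6, 22.4 and 14.9 CPM in Pax7WT and 13.9, 14.1 and 13.7 CPM in Pax7KR. The groups did not overlap, but the gap between Pax7WT replicate 3 and Pax7KR replicate 2 was narrow, and the log2 ratio of the means was -0.42 against -0.55 for the gene. The other 12 transcripts together were at 2.29, 2.42 and 2.57 CPM in Pax7WT and 0.0974, 0.126 and 1.27 CPM in Pax7KR. A different one led in each Pax7WT library, with 59.3 estimated reads for Dhcr7-208 in replicate 1 and 45.0 for Dhcr7-211 in replicate 3. All these values are parts of the gene level that *Dhcr7* was selected on. The differences between the groups are therefore a description with no test, and nothing is read from the separation of Dhcr7-202.

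Since short and long transcripts were mixed differently, the average length of the *Dhcr7* message was estimated at 1894, 1847 and 2245 bases in Pax7WT and 2153, 2446 and 2304 bases in Pax7KR. With this length as an offset, the log2 difference was -0.77 in place of -0.55. For the other members, one transcript held most of the reads in *Idi1* (98.4 to 99.8%), *Insig1* (94.9 to 97.2%), *Sqle* (87.4 to 98.6%), *Hmgcs1* (84.7 to 92.5%) and *Fdft1* (62.7 to 74.4%). The log2 ratio of means of these leading transcripts ran from -0.26 for *Idi1* to -0.55 for *Fdft1*, so the direction was that of the gene.

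**Figure D4:**
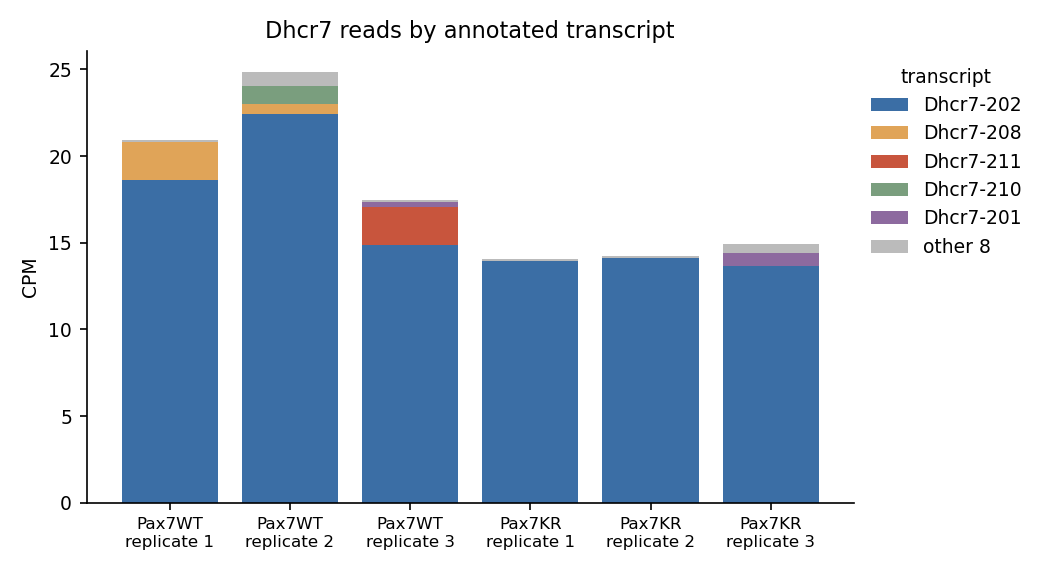
Stacked bars give the *Dhcr7* reads of each library in CPM (vertical axis, from 0) by annotated transcript. Dhcr7-202 makes up at least 85.3% of every bar, and the remainder is 2.29 to 2.57 CPM in Pax7WT and 0.0974 to 1.27 CPM in Pax7KR.

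Levels of different genes were compared per length, in TPM (the deposited unit, which corrects for transcript length). *Insig1* was the highest member at 83.0 to 128 TPM per library, above all libraries of the next gene, *Hmgcs1*, at 31.9 to 69.9 TPM. *Idi1* (31.5 to 55.5 TPM), *Sqle* (23.9 to 49.7 TPM), *Fdft1* (20.5 to 43.5 TPM) and *Lss* (23.7 to 34.0 TPM) followed, and neighbours in that order overlapped. *Dhcr7*, at 9.84 to 21.4 TPM, was the lowest member with no overlap with *Lss*, and was 20th of the 22 genes formed by the 21 enzymes and *Insig1*.

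**Figure D5:**
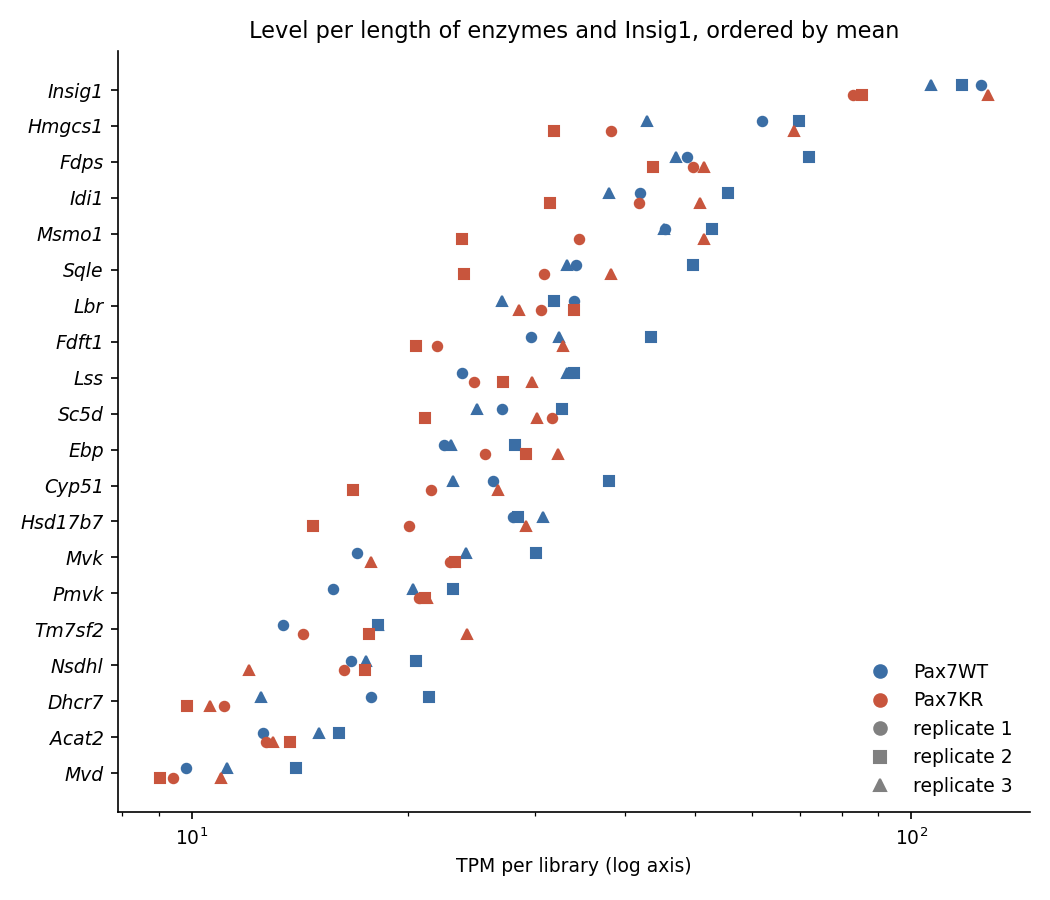
TPM per library on a log axis (horizontal) for enzymes of the route and *Insig1*, ordered by mean, with Pax7WT in blue, Pax7KR in red and marker shape for the replicate number. *Insig1* at 83.0 to 128 TPM is separate from the gene below it, and the other genes overlap their neighbours.

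The rest of the sterol circuit was split between the directions. For sterol sensing and SREBP processing, 12 genes with *Insig1* among them, the fitted level was lower for 7 and higher for 5, the median of their log2 fold changes was -0.02, and 0 passed the adjusted threshold. *Srebf2* was at 312, 347 and 309 CPM in Pax7WT and 307, 291 and 284 CPM in Pax7KR, separate groups by a narrow gap (log2 fold change -0.13, SE 0.07, edgeR adjusted p = 0.992). *Mbtps2* was likewise separate and lower (-0.15, SE 0.08). *Insig2*, the second retention protein, was separate and higher, at 144, 132 and 138 CPM in Pax7WT against 149.9, 149.7 and 148 CPM in Pax7KR (0.11, SE 0.06), as was *Erlin2* (0.17, SE 0.08). Separate groups in either direction held for 10.3% of all genes. *Scap* (0.03, SE 0.08) and *Srebf1* (-0.01, SE 0.09) had differences near 0.

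Uptake and transport of cholesterol gave 5 lower and 7 higher genes of 12 (median 0.01). *Stard4* was at 36.8, 49.8 and 36.3 CPM against 32.9, 28.4 and 35.3 CPM, with separate groups (-0.35, SE 0.13, adjusted p = 0.992). *Stard3* was separate in the other direction, at 17.5, 18.9 and 18.2 CPM against 22.5, 20.9 and 19.5 CPM (0.20, SE 0.10), and *Vldlr* was at 0.19 (SE 0.08) with overlapping groups. Separate groups were found for 10.3% of all genes.

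Export, esterification and LXR genes were lower in 3 and higher in 8 of 11 (median 0.04), with *Abca1*, the cholesterol exporter, at 0.12 (SE 0.08) and *Nceh1*, a cholesteryl ester hydrolase, at -0.21 (SE 0.11). The branch from farnesyl units to ubiquinone, dolichol and prenylated proteins had 8 lower and 3 higher of 11 (median -0.06), with the smallest unadjusted p for *Ggps1* (-0.12, SE 0.07). Fatty acid synthesis, which the related factor SREBP1c drives, had 6 lower and 5 higher of 12 with 1 at 0.00 (median -0.03). *Elovl6*, a fatty acid elongase, was at -0.21 (SE 0.09), and *Fasn*, the fatty acid synthase, was at -0.17 (SE 0.11). *Nceh1*, *Ggps1* and *Elovl6* had separate groups with Pax7KR lower, which held for 5.19% of all genes tested. Without Pax7WT replicate 2 the values were -0.08 for *Srebf2*, -0.18 for *Stard4*, -0.12 for *Elovl6* and -0.02 for *Fasn*. None of the genes in these lists passed the adjusted threshold in edgeR.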

How the data were processed

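How messenger RNA was enriched is not given in the sources used here. Salmon 1.3.0 was run by the authors on paired reads against GENCODE vM25 transcripts with genomic decoys (tools and the GRCm38 build also per the submitters' processing notes, which list DESeq2 1.28.1). The deposited tables give estimated counts, TPM and lengths per transcript and library. Estimated counts and TPM were summed per gene with GENCODE vM21, which held 99.15% of the 140992 transcripts, and the unmatched transcripts held 0.592 to 0.634% of reads. A deposited table of the authors' own comparison (mean, fold change, p) was not used. Counts were rounded, genes with 5 reads in 2 libraries were kept (17152), and edgeR 4.0.16 (R 4.3.3, TMM, robust quasi-likelihood, genotype only) was fitted to all 6 libraries. CPM used the TMM library sizes. P-values were adjusted by Benjamini-Hochberg over all genes, with a threshold of 0.1. The common biological coefficient of variation was 13.8%. Correlations used scipy 1.17.1.

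Group labels came from the genotype in the sample records. The members and gene lists were chosen with earlier results of these data known. All members, any gene of the enzyme and sensing lists, the 3 genes with the smallest unadjusted p of each other lipid list, a few textbook genes and the 5 genes most like *Dhcr7* could be named. Alternatives were other scaling factors, DESeq2 1.42.0, average transcript length, other filters, a block and each library left out. The fit was tested on simulated data. No pair of libraries agreed within sampling noise. Some genes of the lists are counted but not reported by name.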

Additional observations from a re-analysis of the deposited data

How the results depend on the processing

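All members other than *Dhcr7* were lower in Pax7KR under each of the 14 alternatives. *Dhcr7* was too, but its direction was set by its selection in these same libraries. Of the 21 enzymes, with *Dhcr7* among them, 15 to 19 were lower. The median log2 fold change of the enzymes ran from -0.36 to -0.105, the latter without Pax7WT replicate 2. Of 84 values of the members other than *Dhcr7*, 83 kept their direction and side of the threshold and 0 reversed. The log2 difference of *Dhcr7*, the value it was selected on, ran from -0.66 to -0.42 with 1 library left out. It was -0.77 with average transcript length in edgeR and DESeq2. *Insig1* passed the threshold (-0.58, edgeR adjusted p = 0.0398) without Pax7KR replicate 3. The count of genes past the threshold, 0 in edgeR, was 30 with DESeq2, 45 with DESeq2 and average transcript length, 157 without a filter on low reads, and 1 to 32 with 1 library left out, the highest without Pax7KR replicate 3. With the replicate block it was 13. The labels number replicates 1 to 3 in both groups, but deviations of same-numbered libraries correlated at 0.001, 0.057 and -0.061, so the numbers were not taken to pair the samples. The cause of these shifts was not tested. Groups of 3 limit what can be seen: the 95% interval of *Hmgcs1*, -1.44 to 0.59, holds both a large decrease and an increase.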
